A study of Mus musculus with 8 samples.

Results

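The genes described here encode a recombinase and the proteins that help it to pair a broken DNA strand with its homologue: Dmc1, Psmc3ip, Mnd1, Spata22, Meiob, Brca2 and Rad51c. They were chosen by name, as the rows of the deposited expression tables that carry these symbols, and all 7 were found among 24631 gene names. Each had 1 row in the female table and 1 in the male table. In both tables all 7 passed the filter on low values, a mean of at least 1 FPKM (fragments per kilobase of transcript, scaled to the mapped fragments of the library, so a level corrected for transcript length). The 5 genes Dmc1, Psmc3ip, Mnd1, Spata22 and Meiob are grouped here as meiosis-specific, and Brca2 and Rad51c act in recombination in dividing cells as well. The group name is not a result of these data. Mnd1 had a mean of 96.1 FPKM in male and 24.6 FPKM in female controls.

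Meiotic recombination starts from programmed double-strand breaks, whose ends are cut back to leave single-stranded DNA. Replication protein A coats this DNA first, and a recombinase, in meiosis DMC1, then replaces it and searches the homologous chromosome for a matching sequence. BRCA2 loads the recombinase onto the DNA, RAD51C and its paralogues help recombinase filaments to form, the HOP2-MND1 dimer (HOP2 is the product of Psmc3ip) stimulates the invasion of the homologue, and MEIOB and SPATA22 bind the single-stranded DNA together as a meiosis-specific partner of replication protein A. In the mouse fetus, female germ cells enter meiotic prophase while male germ cells arrest in the mitotic cycle as prospermatogonia.

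The data were RNA-Seq profiles of germ cells sorted from fetal ovaries and testes at embryonic day (E) 15.5 by an Oct4-EGFP transgene, with 2 libraries in each of 4 groups: female Ctrl, female Snf5 CKO, male Ctrl and male Snf5 CKO. Snf5, listed in the tables as Smarcb1, encodes a core subunit of the chromatin remodeller SWI/SNF. The Snf5 CKO embryos carried 1 floxed and 1 deleted Snf5 allele together with TNAP-Cre, a Cre knocked into the Alpl gene that is active in primordial germ cells. The study estimated that deletion of the floxed allele was incomplete in both sexes, and a minority of germ cells still stained for SNF5 at E15.5. Levels in the Snf5 CKO libraries are thus those of a mixture of deleted and undeleted cells. Controls were a mixture of genotypes, Snf5 fx/+, Snf5 fx/Δ without Cre, and Snf5 fx/+ with TNAP-Cre, so that part of the control cells also lacked 1 Snf5 allele. All groups carried the Oct4-EGFP transgene, and the strain background is given as C57BL/6 in the labels but as a mixture of C57BL/6, 129/Sv and ICR in the methods of the study. Germ cells of several embryos were pooled for most libraries, whereas a male Snf5 CKO library came from a single embryo. In such bulk libraries, fewer cells that express a gene and less RNA of it per cell cannot be told apart.

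Smarcb1 checked the labels. It was at 23.4 and 22.3 FPKM in female Ctrl against 4.24 and 2.47 FPKM in female Snf5 CKO libraries, and at 141 and 167 FPKM in male Ctrl against 8.73 and 10.1 FPKM in male Snf5 CKO libraries. The 2 tables were quantified separately by sex, and no test was made between them. Unnamed loci held 5.46% to 42.1% of the summed FPKM of a library. The share was 36.7% and 35.3% in female Ctrl and 9.94% and 28.2% in female Snf5 CKO libraries. In males it went with the replicate number, at 6.56% and 42.1% in Ctrl and 5.46% and 35.4% in Snf5 CKO libraries. The tables hold no counts, and the spacing of the lowest values gave an estimated 22.2 to 54.4 M fragments (M, mega) for the female and 23.7 to 45.3 M for the male libraries.

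In female germ cells, 4 of the 7 genes were called lower, or fell, in the Snf5 CKO libraries and none was called higher. Spata22, Meiob and Dmc1, which stood near or above 200 FPKM in control ovarian germ cells, lost 94.7%, 93.6% and 83.1% of their mean level. Brca2 lost 71.4%. Psmc3ip, Mnd1 and Rad51c did not pass the call, which asked for an adjusted p below 0.05 in limma over all genes of the table and a log2 fold change of at least 1 in either direction. Among all 11529 genes tested in females, 21.6% were called lower and 17.3% higher by the same rule. The median log2 fold change was −1.74 over the 7 genes and −0.13 over all genes tested. In 5 of the 7 genes both Snf5 CKO values were under both Ctrl values, as in 45.1% of all genes, and in 1 both were over them, as in 36.4%. An exact permutation test of a single gene with 2 libraries against 2 cannot give a two-sided p below 0.333, so the calls rest on the limma fit, which borrows the spread of the other genes.

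**Figure D1:**
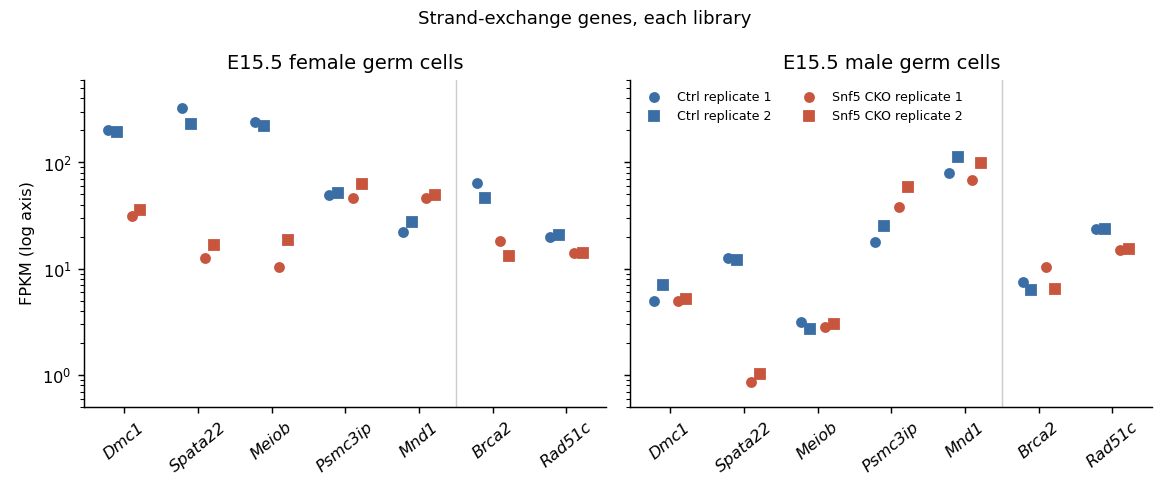
FPKM on a log axis of the 7 strand-exchange genes in each library, female libraries on the left and male on the right, with Ctrl in blue, Snf5 CKO in red, replicate 1 as circles and replicate 2 as squares; the grey line parts meiosis-specific from general genes. Spata22, Meiob and Dmc1 were at 195 to 324 FPKM in female Ctrl and at 10.5 to 35.4 FPKM in female Snf5 CKO libraries, and in males the blue and red points of Spata22 stand far apart while those of Meiob overlap.

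Dmc1, the meiotic recombinase, lies on the minus strand of chromosome 15 (mm10, chr15:79561497-79605109). Its levels were 202 and 195 FPKM in female Ctrl and 31.6 and 35.4 FPKM in female Snf5 CKO libraries, or 199 ± 5.19 against 33.5 ± 2.70 (mean ± SD, n = 2). Both Snf5 CKO libraries lay far below both controls, and the replicates of each group were close together. The log2 fold change on the scale of FPKM + 1 was −2.53 (SE 0.17, limma adjusted p = 0.00011), ranking 218 from the bottom of the 11529 genes tested. No exon of another gene overlaps the exons of Dmc1 in the annotation used.

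Spata22 and Meiob, whose products act as a pair on single-stranded DNA, showed the most negative values of the 7 genes. Spata22 (chromosome 11, plus strand, chr11:73329741-73346044) was at 324 and 229 FPKM in female Ctrl and 12.7 and 16.7 FPKM in female Snf5 CKO libraries, a log2 fold change of −4.14 (SE 0.23, limma adjusted p = 9.7e-05) that ranked 6 from the bottom of all genes tested. The 2 controls differed between themselves, yet the lower of them was still far above both Snf5 CKO libraries. Meiob (chromosome 17, plus strand, chr17:24804289-24839788) was at 238 and 218 FPKM in female Ctrl and 10.5 and 18.6 FPKM in female Snf5 CKO libraries. Its log2 fold change was −3.93 (SE 0.27, limma adjusted p = 0.00011), ranking 14. Meiob shares no exonic base with another gene, whereas 1025 of the 1274 exonic bases of Spata22 are shared with Gm49340, an annotated protein-coding gene on the same strand that has no row of its own in the tables. Aspa, which encodes aspartoacylase and has an exon in the window upstream of Spata22, was looked at after the values were seen: it was at 23.3 and 17.6 FPKM in female Ctrl and 0.539 and 0.730 FPKM in female Snf5 CKO libraries.

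The genes of the HOP2-MND1 pair were not among those that fell. Psmc3ip (chromosome 11, minus strand, chr11:101091823-101095436) was at 49.6 and 51.8 FPKM in female Ctrl and 46.5 and 62.7 FPKM in female Snf5 CKO libraries, so that the groups overlapped. The log2 fold change was 0.09, with a 95% confidence interval from −0.38 to 0.56 (limma adjusted p = 0.71). Mnd1 (chromosome 3, minus strand, chr3:84087933-84155786) was at 21.97 and 27.3 FPKM in female Ctrl and 46.6 and 49.8 FPKM in female Snf5 CKO libraries. Both Snf5 CKO libraries lay above both controls, and the log2 fold change of 0.95 (SE 0.18, limma adjusted p = 0.0039) stopped just short of the fold that a call required. Without female Ctrl replicate 2 it was 1.10 and passed. Psmc3ip shares 385 of its 1818 exonic bases with Mlx on the opposite strand, and nothing states that strand was used in counting. Mlx rose in females from 4.91 and 5.81 FPKM to 19.3 and 18.6 FPKM.

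Brca2, which encodes a recombinase loader (chromosome 5, plus strand, chr5:150522630-150570329), was the 1 general gene that fell in females. It was at 63.8 and 46.7 FPKM in female Ctrl and 18.3 and 13.3 FPKM in female Snf5 CKO libraries, with a log2 fold change of −1.74 (SE 0.23, limma adjusted p = 0.00091). In both groups replicate 1 was the higher, and the groups did not overlap. With variances taken gene by gene the limma adjusted p was 0.0777 and the call was lost, which was the upper end of a range from 2.96e-05 over all alternatives tried. Rad51c (chromosome 11, minus strand, chr11:87376645-87404954) was at 19.9 and 20.6 FPKM in female Ctrl and 14.1 and 14.1 FPKM in female Snf5 CKO libraries. The Snf5 CKO pair stood under the control pair without overlap, with a log2 fold change of −0.49 (SE 0.17, limma adjusted p = 0.037) that was too small for a call. The tables give Rad51c the same locus as 15 other rows of the female table, among them Tex14 and Trim37. The confidence bounds deposited for female Ctrl replicate 1 ran from 0 to 140 FPKM, so the level of Rad51c is less certain than the test shows. Wide bounds were not particular to Rad51c. Those of Psmc3ip ran from 0 to 99.7 FPKM in the same library and from 0 to 42.8 FPKM in male Ctrl replicate 1.

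**Figure D2:**
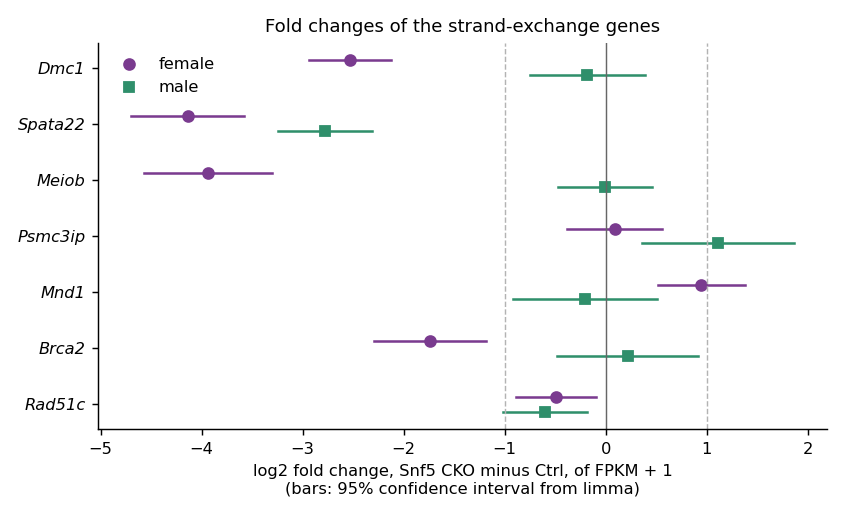
Log2 fold change of FPKM + 1, Snf5 CKO minus Ctrl, of each gene in females (purple circles) and males (green squares), with bars for the 95% confidence interval from limma and dashed lines at a log2 fold change of 1 in each direction. Spata22 lies far to the left of the dashed line in both sexes, at −4.14 in females and −2.78 in males, whereas Meiob is at −3.93 in females and −0.01 in males.

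The starts of genes that fell and of genes that did not can be set side by side. The 250 bases before the RefSeq start (GRCm38.p6, minus strand for both) are shown for Dmc1, at chr15:79605110-79605359, and for Mnd1, at chr3:84155787-84156036, because Dmc1 fell in females and Mnd1 was not called, although their products act in one reaction.
Dmc1: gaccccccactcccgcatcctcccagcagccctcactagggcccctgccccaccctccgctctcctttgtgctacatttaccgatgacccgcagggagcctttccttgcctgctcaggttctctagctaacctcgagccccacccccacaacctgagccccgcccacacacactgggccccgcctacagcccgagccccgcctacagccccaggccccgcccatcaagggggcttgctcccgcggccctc
Mnd1: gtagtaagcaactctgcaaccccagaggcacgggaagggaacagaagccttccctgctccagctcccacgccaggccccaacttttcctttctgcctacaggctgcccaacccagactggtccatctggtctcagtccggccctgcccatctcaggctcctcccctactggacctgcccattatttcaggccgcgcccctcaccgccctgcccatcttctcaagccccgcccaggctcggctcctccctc
The Dmc1 stretch is 68.8% G and C with 12 CpG pairs and the Mnd1 stretch 63.6% with 8, against medians of 52.4% and 6 over all RefSeq windows. Windows of 300 bases, 250 before and 50 after the start, were searched on both strands for CACGTG (the E-box), TTCCCGC (an E2F motif) and CCTCAG (the core of the motif of STRA8 and MEIOSIN, activators of meiotic genes). The windows of Dmc1, Mnd1 and Psmc3ip held none of them. For 6 of the 7 genes a window was at hand, and Meiob had none.

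The E2F letters, GCGGGAA on the strand shown, lay at the start of Spata22 and at positions −168 to −162 from the start of Brca2, both of which fell in females. They also lay at the second RefSeq start of Rad51c, which was not called. In the lines below capitals mark the motif, at chr11:73329726-73329755 for Spata22, chr5:150522442-150522471 for Brca2 and chr11:87404941-87404970 for Rad51c.
Spata22: ggttttcagagGCGGGAAgttccgcgtggc
Brca2: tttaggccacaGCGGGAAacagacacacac
Rad51c: cccccgcgaggGCGGGAAaagcaaggggtc
The same letters are in 4.60% of all 32851 RefSeq windows. CCTCAG was found in both windows of Rad51c and is in 26.8% of all windows, here with 12 bases on either side at chr11:87404598-87404627.
Rad51c: tgtgtgggatttCCTCAGcagcagcaaggc
The E-box, in 7.15% of all windows, was in none of the 6 genes. A match of letters is a description of the sequence and does not show that a factor binds there.

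In male germ cells, 1 of the 7 genes fell and 1 rose in the Snf5 CKO libraries. Spata22 lost 92.3% of its mean level and Psmc3ip reached 2.24 times its control mean. Dmc1, Meiob, Mnd1, Brca2 and Rad51c were not called. Among all 12279 genes tested in males, 17.4% were called lower and 14.4% higher, which is 2141 lower against 1763 higher, and 2499 lower against 1352 higher when every library was rescaled to a common sum. The median log2 fold change was −0.18 over the 7 genes and −0.07 over all genes tested. In 2 of the 7 genes both Snf5 CKO values were under both Ctrl values, as in 40% of all genes, and in 1 both were over them, as in 34.5%.

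Spata22 was at 12.6 and 12.0 FPKM in male Ctrl and 0.858 and 1.02 FPKM in male Snf5 CKO libraries. The replicates agreed closely and the groups lay far apart, with a log2 fold change of −2.78 (SE 0.18, limma adjusted p = 0.0021). With a pseudocount of 0.1 in place of 1 it was −3.58, since a pseudocount of 1 shrinks the change of a gene that ends near 1 FPKM. The 2 Snf5 CKO levels rest on an estimated 26.3 and 38.3 fragments. Aspa, at 4.47 and 4.78 FPKM in male Ctrl, was at 0.112 and 0.133 FPKM in male Snf5 CKO libraries.

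Meiob, the partner of Spata22, was low in both male groups, at 3.19 and 2.71 FPKM in Ctrl and 2.84 and 3.001 FPKM in Snf5 CKO libraries. Its log2 fold change of −0.01 had a 95% confidence interval from −0.48 to 0.46, was 0.05 after median-of-ratios rescaling, and rests on an estimated 119 to 193 fragments per library. Dmc1 was likewise low in both, at 4.98 and 6.99 FPKM in Ctrl and 5.005 and 5.20 FPKM in Snf5 CKO libraries, with an interval from −0.75 to 0.39. The Snf5 CKO values of both genes lay within the range of the controls.

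Psmc3ip was at 17.8 and 25.2 FPKM in male Ctrl and 37.7 and 58.8 FPKM in male Snf5 CKO libraries, with a log2 fold change of 1.11 (SE 0.29, limma adjusted p = 0.031). Both Snf5 CKO libraries lay above both controls. The replicates of each group were wide apart, with replicate 2 the higher in both groups. The call is a weak one: it was lost in 6 of the 14 settings tried. Without male Ctrl replicate 1 the log2 fold change was 0.87, and without male CKO replicate 2 it was 0.80. With the replicate number as a block the limma adjusted p was 0.000136, the lower end of its range. The upper end was 0.196, with variances taken gene by gene. Mnd1, the dimer partner of Psmc3ip, was at 80.0 and 112 FPKM in male Ctrl and 68.3 and 98.7 FPKM in male Snf5 CKO libraries. The groups overlapped (log2 fold change −0.20, 95% confidence interval −0.91 to 0.51). Within each replicate number the Snf5 CKO value of Mnd1 was the lower. The limma adjusted p of Mnd1 was 0.58, and 0.017 with the replicate number as a block, where the fold was still too small for a call. Mlx, which overlaps Psmc3ip, was at 18.6 and 19.1 FPKM in male Ctrl and 14.9 and 16.7 FPKM in male Snf5 CKO libraries.

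Of the general genes, Brca2 was at 7.59 and 6.26 FPKM in male Ctrl and 10.4 and 6.42 FPKM in male Snf5 CKO libraries, which overlap (log2 fold change 0.22, 95% confidence interval −0.48 to 0.91). Rad51c was at 23.4 and 23.7 FPKM in male Ctrl and 15.2 and 15.3 FPKM in male Snf5 CKO libraries. Its log2 fold change of −0.60 (SE 0.16, limma adjusted p = 0.034) was below the fold of a call, as in females, and its male row shares a locus with 14 others.

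FPKM is corrected for transcript length, so levels are set side by side between genes here, though the correction need not be complete. Mnd1, with a longest transcript of 875 bases, was higher in replicate 2 of every group. Brca2, at 10724 bases, was higher in replicate 1 of every group. Whether length plays a part in this was not tested. In female controls Spata22 at 277 and Meiob at 228 FPKM headed the order and their replicates overlapped, followed by Dmc1 at 199 FPKM, then Brca2 at 55.2 and Psmc3ip at 50.7 FPKM, which overlapped, then Mnd1 at 24.6 and Rad51c at 20.3 FPKM. In female Snf5 CKO libraries Psmc3ip at 54.6 and Mnd1 at 48.2 FPKM headed it, with overlapping replicates, and Dmc1 followed at 33.5 FPKM. Brca2 at 15.8, Spata22 at 14.7, Meiob at 14.5 and Rad51c at 14.1 FPKM did not differ beyond their spread. The order was another one in male controls, with Mnd1 at 96.1 FPKM ahead of Rad51c at 23.6 and Psmc3ip at 21.5 FPKM, and Spata22 at 12.3, Brca2 at 6.93, Dmc1 at 5.99 and Meiob at 2.95 FPKM below. Replicates of Rad51c and Psmc3ip overlapped there, as did those of Brca2 and Dmc1. Of the genes called meiosis-specific, Mnd1 was thus at its highest in male germ cells, with a control mean 3.90 times the female one, whereas the female control mean was 77.3 times the male one for Meiob, 33.2 times for Dmc1 and 22.5 times for Spata22. These figures set 2 separately quantified tables beside each other and were not tested.

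Ratios between partners within one library do not depend on how libraries were scaled. The ratio of Dmc1 to Mnd1 went from 9.22 and 7.14 in female Ctrl to 0.679 and 0.712 in female Snf5 CKO libraries. The ratio of Spata22 to Meiob in females was 1.36 and 1.05 in Ctrl and 1.21 and 0.898 in Snf5 CKO libraries, which overlap. In males the same ratio was 3.94 and 4.43 in Ctrl and 0.302 and 0.341 in Snf5 CKO libraries. Mnd1 to Psmc3ip was 4.49 and 4.45 in male Ctrl and 1.81 and 1.68 in male Snf5 CKO libraries, closer between replicates than either gene alone. In females it was 0.443 and 0.528 in Ctrl and 1.003 and 0.794 in Snf5 CKO libraries.

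**Figure D3:**
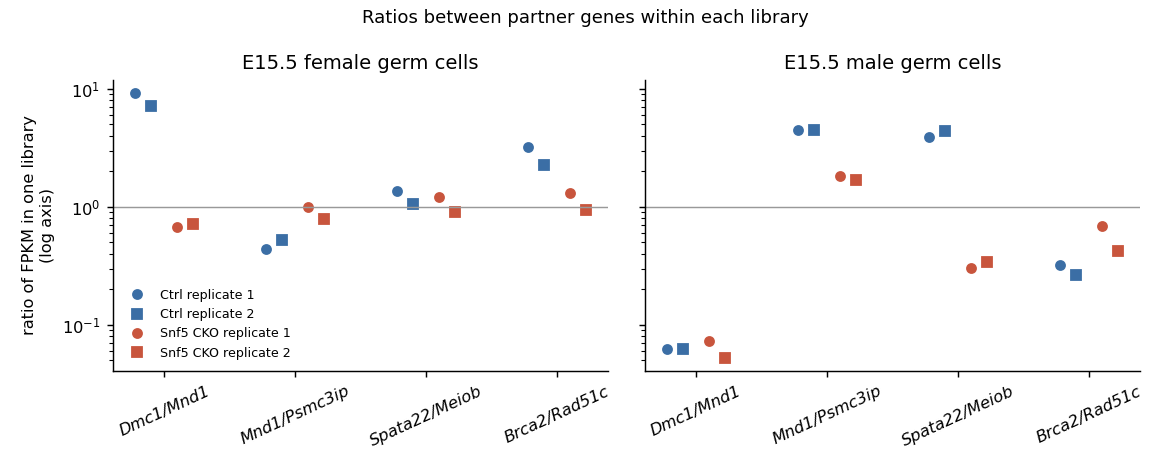
Ratio of the FPKM of 2 partner genes within each library, on a log axis, for females on the left and males on the right, with Ctrl in blue, Snf5 CKO in red, replicate 1 as circles and replicate 2 as squares; the grey line marks equal levels. The ratio of Dmc1 to Mnd1 lies above 1 in both female Ctrl libraries, at 9.22 and 7.14, and below 1 in all others, and the ratio of Spata22 to Meiob separates Ctrl from Snf5 CKO in males but overlaps in females.

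Meiosis-specific and general genes were set against each other inside each library. The mean log2(FPKM + 1) of the 5 meiosis-specific genes exceeded that of Brca2 and Rad51c by 1.62 and 1.75 in female Ctrl and by 0.60 and 1.18 in female Snf5 CKO libraries. The difference between groups was −0.80, beside a pooled SD between replicates of 0.30, and the 2 groups did not overlap. In males the same quantity was −0.06 and 0.28 in Ctrl and −0.40 and 0.18 in Snf5 CKO libraries, which overlap, a difference of −0.22 beside a pooled SD of 0.34. In every group replicate 2 had the higher value, so both SDs include any shift shared by the replicate number. Within each replicate number the male Snf5 CKO value lay under the male Ctrl value. Without female CKO replicate 1 the female difference was −0.51, and without male CKO replicate 1 the male one was 0.07. No test was made on this mean, since the genes were chosen with earlier results known. The mean also joins unlike genes. In females the log2 fold changes of the meiosis-specific genes ran from −4.14 for Spata22 to 0.95 for Mnd1. Brca2 at −1.74 and Rad51c at −0.49 lay between these. Of the 5 meiosis-specific genes 3 fell in females and 1 in males, and of the 2 general genes 1 fell in females and none in males, beside 21.6% of all genes lower in females and 17.4% in males.

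The paralogues of Rad51c and the Shu complex genes gave 1 called gene of 6 in females, Swsap1, which encodes a Shu complex subunit, at a log2 fold change of −1.06. Over all genes tested 21.6% were lower in females, so this count is no more than the background. In males 2 of the 6 were called and both rose, the paralogues Rad51d by 1.53 and Rad51b by 1.52 on the log2 scale. Among all male genes tested, 14.4% were higher. The median over the list was −0.44 in females and 0.12 in males.

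The 2 meiotic partners of BRCA2 both fell in females. Hsf2bp, whose product binds BRCA2 in meiocytes, was at 131 and 126 FPKM in Ctrl and 53.6 and 51.5 FPKM in Snf5 CKO libraries (log2 fold change −1.27). 4930432K21Rik, which encodes the HSF2BP partner BRME1, was at 88.9 and 84.0 FPKM in Ctrl and 16.9 and 17.1 FPKM in Snf5 CKO libraries (log2 fold change −2.28). Neither was called in males, where their log2 fold changes were 0.02 and −0.49. Of the 11 other BRCA partners and recombinase mediators, 1 was called in females, Sfr1 of the SWI5-SFR1 mediator at −1.08, and 2 rose in males, Rad51ap1 by 1.78 and Fignl1, an AAA ATPase that acts on recombinase filaments, by 1.13 on the log2 scale. These counts stand beside 21.6% of all genes lower in females and 14.4% higher in males.

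Upstream of strand exchange, 2 of the 3 replication protein A subunits rose in females, Rpa1 by 1.70 and Rpa2 by 1.13 on the log2 scale, and Rpa3 was at 0.32. None of the 3 was called in males (Rpa1 −0.05, Rpa2 0.20 and Rpa3 0.78). Of 7 resection genes, 2 were lower in females, Rbbp8 at −1.53 (CtIP, which starts resection) and Mre11a at −1.31 (a nuclease of the MRN complex), and Dna2, a nuclease and helicase of long-range resection, rose by 1.44. In males Dna2 rose by 2.78 and Exo1, the other long-range nuclease, by 1.97, and none of the 7 fell. The shares over all genes were 21.6% lower and 17.3% higher in females and 17.4% lower and 14.4% higher in males, and the female counts of the resection list lie near them.

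**Figure D4:**
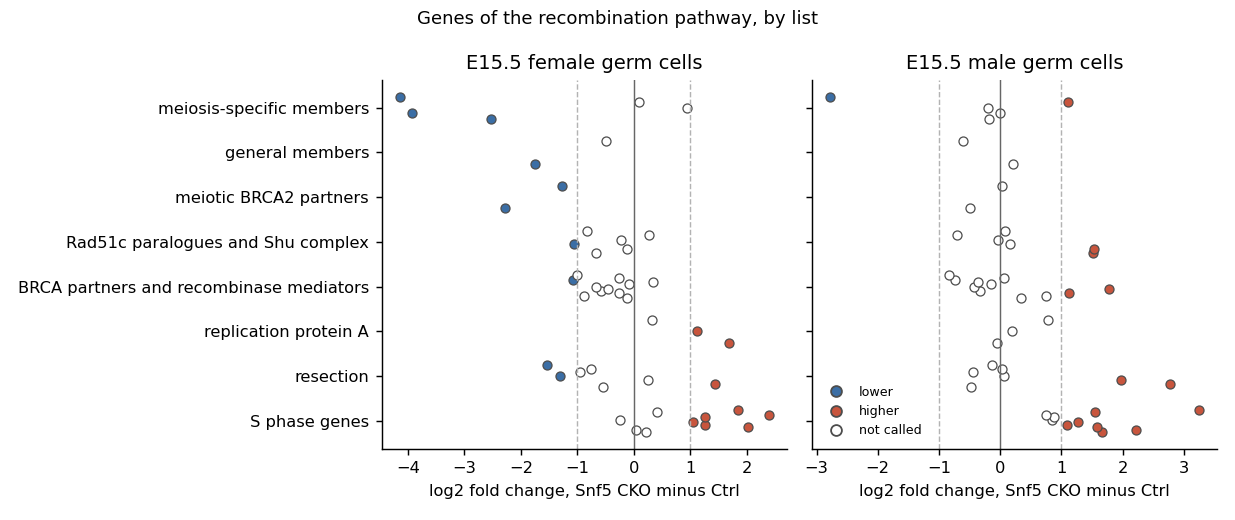
Log2 fold change of FPKM + 1, Snf5 CKO minus Ctrl, of every tested gene of 8 lists, the cell type marker lists left out (1 point per gene), females on the left and males on the right, filled blue where called lower, red where called higher and white where not called, with dashed lines at a log2 fold change of 1 in each direction. Blue points gather in the upper lists of the female panel, down to −4.14 for Spata22, while the single blue point of these lists in the male panel is Spata22 at −2.78 and the S phase genes lie mostly to the right in both.

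Other measures moved with the genotype. For the counts that follow, 17.3% of all genes were higher and 21.6% lower in females, and 14.4% higher and 17.4% lower in males. Of 10 S phase genes, 6 rose in females (Mcm7 by 2.39, Mcm2 by 2.02 and Rrm2 by 1.85 on the log2 scale) and 7 in males (Rrm2 by 3.25, Gins2 by 2.22 and Cdc45 by 1.66). Pou5f1, the gene whose promoter drives the sorting transgene, was at 8.63 and 16.7 FPKM in female Ctrl and 295 and 333 FPKM in female Snf5 CKO libraries. The summed level of 12 supporting cell markers was 8.65 and 12.2 FPKM in female Ctrl and 33.2 and 29.6 FPKM in female Snf5 CKO libraries, with 3 of 8 tested markers called higher and the Sertoli cell genes Amh, Sox9 and Dhh at or below 0.132 FPKM in every female library. In males it was 46.4 and 35.9 FPKM in Ctrl and 174 and 226 FPKM in Snf5 CKO libraries, with 8 of 9 tested markers called higher, none at 0 in all libraries, and Amh, the hormone of Sertoli cells, at 17.4 and 16.5 FPKM in Ctrl and 69.7 and 119 FPKM in Snf5 CKO libraries. Leydig cell markers summed to 85.7 and 58.2 FPKM in male Ctrl and 19.2 and 15.1 FPKM in male Snf5 CKO libraries, with 3 of 5 called lower, and stromal markers to 22.1 and 11.3 FPKM in male Ctrl and 4.63 and 3.06 FPKM in male Snf5 CKO libraries, with 3 of 4 tested called lower. In females no Leydig cell, stromal or blood and endothelial list had more than 2 tested genes. The 5 germ cell markers (Ddx4, Dazl, Dnd1, Mael and Pou5f1) summed to 1817 and 1840 FPKM in female Ctrl and 1519 and 1485 FPKM in female Snf5 CKO libraries, and to 3122 and 3234 FPKM in male Ctrl and 2165 and 2025 FPKM in male Snf5 CKO libraries. In females Pou5f1 and Dnd1 were called higher and Mael lower, and in males Dnd1 and Mael were called lower. Without Pou5f1 the sums were 1809 and 1823 FPKM in female Ctrl and 1224 and 1153 FPKM in female Snf5 CKO libraries, and 2722 and 2797 FPKM in male Ctrl and 1545 and 1377 FPKM in male Snf5 CKO libraries. The part of these shifts in the values of the strand-exchange genes was not tested.

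Likeness to Dmc1 was measured over the 8 libraries as the root mean square difference of log2(FPKM + 1), after the mean of each table was subtracted, among 10471 genes tested in both tables. The nearest 5 were Chid1 (0.088), Gm15706 (0.115), Xlr4b (0.123), Jazf1 (0.125) and 2010109A12Rik (0.125). Chid1 had log2 fold changes of −2.59 in females and −0.12 in males, beside −2.53 and −0.18 for Dmc1. None of the other 6 strand-exchange genes was among them: Brca2 ranked 511, Meiob 1097, Rad51c 2864, Psmc3ip 6244, Spata22 6690 and Mnd1 7941. The measure follows the size of a change as well as its direction.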

How the data were processed

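The deposited values were FPKM per gene, with lower and upper confidence bounds, in 1 table of 4 female and 1 of 4 male libraries. SMART-Seq v4 amplified cDNA from sorted germ cells was sequenced as paired ends, and the authors aligned to mm10 and quantified FPKM with the TopHat and Cufflinks tools. The labels name TopHat2 2.2.1 and Cuffdiff 2.1.1, and the study's methods give the version numbers the other way round. Genes and lists were chosen with earlier results of these data known.

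Each table was fitted alone with limma 3.58.1 (R 4.3.3, empirical Bayes with trend) on log2(FPKM + 1), over named loci with a mean of at least 1 FPKM, 1 row per gene (the row with the highest mean), with Benjamini-Hochberg adjustment over all genes tested. A gene was called at an adjusted p below 0.05 and a log2 fold change of 1 or more in size. The study describes the libraries as biological duplicates. FPKM normalization to all fragments ties each value to the highly expressed genes of its library, and the amplified cDNA holds no molecular identifiers. Fragment numbers were estimated from the spacing of low values of genes with 1 transcript, assuming fragments of 200 bases, and 80.8% to 87.2% of those values lay within 0.15 of a whole step. They cover counting error only and entered no test.

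All 7 genes were named, with Smarcb1, and 1 further gene that the rule names is not reported here. Of each other list, at most the 3 called genes with the largest change per direction and sex were named, every gene of lists of 3 or fewer, and the 5 genes nearest to Dmc1. Gene positions are those of GENCODE vM21 (mm10) and promoter windows those of RefSeq (GRCm38.p6). The fit had no term for the replicate number, and a fit with it as a block was an alternative. In males the column headers give the replicate number as an experiment number shared by Ctrl and Snf5 CKO. In females the headers give a replicate number alone. There it may mark a shared run, since the labels' descriptions name the runs of replicate 1 in another style than those of replicate 2. The deviations of the 2 numbers from their group means correlated at 0.500 in females and 0.607 in males across genes. Alternatives were the pseudocount, the filter, 2 rescalings, linear FPKM, no moderation, the replicate block, summed rows and leaving out each library. No column of the tables was left unused among the FPKM values.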

Additional observations from a re-analysis of the deposited data

Results flagged for a closer look

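Of 36 genes of the recombination lists tested in both tables, 5 stood on opposite sides of zero in the 2 sexes, in that both Snf5 CKO libraries lay on one side of both controls in females and on the other side in males. That is 13.9%, beside 20.7% of all 10472 genes tested in both tables. Rad51b, a paralogue of Rad51c, had log2 fold changes of −0.67 in females and 1.52 in males. Xrcc3, the paralogue that pairs with RAD51C, was at 0.28 in females and −0.70 in males. Bard1, the partner of BRCA1, was at −0.12 in females and 0.33 in males. Rad51ap1, which encodes a protein that stimulates strand exchange, was at −0.45 in females and 1.78 in males. Fignl1 was at −0.26 in females and 1.13 in males. Of the S phase and cell type marker lists, 5 more met the pattern: Mcm5 (−0.24 in females and 0.85 in males), Dazl (−0.39 and 0.45), Dnd1 (4.39 and −1.78), Hsd3b1 (0.79 and −1.20) and Insl3, in a row shared with Jak3 (1.18 and −1.66). The tables were quantified separately, and the difference between the sexes was not tested for any of them. None of the 7 strand-exchange genes met this pattern.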

How the results depend on the processing

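The calls of Spata22 (both sexes), Dmc1 and Meiob (females) held in all 14 settings, and Brca2 in females in 13. With variances taken gene by gene, calls were 1054 lower and 871 higher in females and 369 lower and 279 higher in males, and no strand-exchange gene was higher in males (0). The count of higher genes among the 7 was also 0 in males with no filter, with a common sum and with linear FPKM, and 1 in females (Mnd1) after median-of-ratios rescaling. Over leaving out each library it ran from 0 to 1 in both sexes: Mnd1 was called without female Ctrl replicate 2, and Psmc3ip was lost without male Ctrl replicate 1 or male CKO replicate 2. In males 1099 genes were higher with no filter and 1347 lower at a mean of at least 5 FPKM. Median-of-ratios rescaling moved the median over all genes (log2) from −0.13 to 0.01 in females, and a common sum moved it from −0.07 to −0.24 in males. Signs turned for genes that were not called: Meiob in males was 0.055 after median-of-ratios rescaling, and leaving out each library gave −0.12 to 0.30 for Psmc3ip in females and, in males, −0.097 to 0.081 for Meiob, −0.39 to 0.029 for Dmc1, −0.47 to 0.058 for Mnd1 and −0.089 to 0.52 for Brca2. The difference of meiosis-specific and general genes ran from −1.09 to −0.51 in females and from −0.51 to 0.07 in males. The replicate block gave 2499 lower and 2010 higher genes in females and 2216 and 1850 in males, and changed no call of the 7 genes. With 2 libraries a group and no block, differences below the intervals given could not be detected. The cause of these changes was not tested.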
